A study of Mus musculus with 15 samples.

Results

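Colony-stimulating factors are secreted proteins that keep macrophages, microglia and granulocytes alive and direct their growth. The 7 genes described here are the ligand genes Csf1, Il34 and Csf3 and the receptor genes Csf1r, Csf2ra, Csf2rb and Csf3r. They were taken by name, through the Entrez gene number in the first column of the authors' table, and not by a cutoff on their values. The choice was made with earlier results of these data known. All 7 had values, out of 17892 lines with values in the table, and all 7 were among the 14853 genes tested. Csf3 passed the filter on low counts only through the injured groups, where it was high.

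The libraries were made from PDGFRβ-positive cells isolated from mouse brain, and PDGFRβ is a receptor of pericytes, vascular smooth muscle cells and fibroblasts. The 15 libraries form 4 groups by genotype and treatment. Wild-type (WT) mice gave 3 sham libraries and 4 libraries taken 24 h after neonatal hypoxia-ischemia (HI), and microRNA-210 knockout (KO) mice gave 4 sham libraries and 4 libraries taken 24 h after HI. Beyond genotype, treatment and a replicate number, the labels used here do not state age in days, strain, the knockout allele, how HI was induced, the time of the sham libraries or whether each library is a separate animal. Where libraries are not from separate animals, the p-values measure only the spread between these samples, which may be technical.

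As background, CSF1 (encoded by Csf1) and IL-34 bind the same receptor tyrosine kinase, CSF1R, on which microglia and most tissue macrophages depend, and in adult forebrain IL-34 is known mainly as a neuronal ligand. GM-CSF acts through a specific α chain, encoded by Csf2ra, and a β chain, encoded by Csf2rb, that the receptors for interleukins 3 and 5 share. G-CSF, encoded by Csf3, acts through CSF3R and drives the production and release of neutrophils. Endothelial cells, fibroblasts and macrophages are known to make G-CSF and CSF1 when interleukin-1 or TNF activates NF-κB, and the transcription factor PU.1 is known to drive the receptor genes in myeloid cells.

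Promoter sequence is shown for the 3 members that RefSeq's promoter table for GRCm38.p6 holds, a build older than mm39, which the submitters' processing notes name. Each window runs from 250 bases before to 50 bases after the annotated start, 5′ to 3′ on the gene's strand. They are shown because Csf1 is an inducible ligand gene, while Csf2ra and Csf3r are receptor genes of myeloid cells. The Csf1 window is chr3:107760420-107760719 on the minus strand, and its capitals mark a match to the NF-κB consensus. The Csf2ra window is chr19:61228369-61228668 on the minus strand and the Csf3r window is chr4:126024409-126024708 on the plus strand, and their capitals mark the PU.1 core GAGGAA.
Csf1: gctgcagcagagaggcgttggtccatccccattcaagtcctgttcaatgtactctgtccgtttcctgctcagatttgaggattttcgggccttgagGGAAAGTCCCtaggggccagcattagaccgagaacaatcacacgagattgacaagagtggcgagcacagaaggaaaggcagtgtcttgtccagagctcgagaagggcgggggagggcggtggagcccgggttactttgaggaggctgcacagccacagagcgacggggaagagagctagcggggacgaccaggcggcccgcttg
Csf2ra: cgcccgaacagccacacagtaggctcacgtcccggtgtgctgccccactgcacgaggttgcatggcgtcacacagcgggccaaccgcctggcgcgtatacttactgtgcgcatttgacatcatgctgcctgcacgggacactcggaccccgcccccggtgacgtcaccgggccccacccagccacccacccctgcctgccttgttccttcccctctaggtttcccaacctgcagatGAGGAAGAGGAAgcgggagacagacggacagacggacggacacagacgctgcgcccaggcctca
Csf3r: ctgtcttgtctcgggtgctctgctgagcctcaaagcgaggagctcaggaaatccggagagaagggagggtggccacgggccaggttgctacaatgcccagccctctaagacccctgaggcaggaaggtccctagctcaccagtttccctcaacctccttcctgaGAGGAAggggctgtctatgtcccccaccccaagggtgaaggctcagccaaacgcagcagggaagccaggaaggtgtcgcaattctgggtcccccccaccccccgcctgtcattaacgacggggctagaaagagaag

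Both strands were searched. The Csf2ra window held 2 copies of the PU.1 core, directly side by side, with first bases at -14 and -8 from the start, and the Csf3r window held 1, at -86. The NF-κB consensus matched once in the Csf1 window, at -154, and once in the Csf3r window, at -129, not capitalised. Of 32851 windows of the same length in the table, 28.3% held the PU.1 core and 8.46% the NF-κB consensus. These matches describe the letters of the windows and not binding.

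The microRNA removed in the KO mice is shown with its seed, bases 2 to 8, in capitals; it comes from the RefSeq table for GRCm38.p6, chr7:141221407-141221428 on the minus strand.
miR-210-3p: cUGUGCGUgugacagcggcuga
The complement of that seed, ACGCACA, occurred in the annotated 3-prime UTR of 0 of the 7 members (longest coding transcript of each gene, GENCODE M21) and in 3.61% of 14552 tested genes with such a UTR. The authors' table has 1 line named Mir210, with 0 values, so the targeted gene could not be checked in these libraries.

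Total expected counts ran from 15436376 to 18118697 per library. Levels are given as CPM, read counts scaled to a common library size. Markers of pericytes were abundant, with sums over 13 genes of 8750 to 12200 CPM in WT sham, but markers of other cells were present too, and the balance differed between groups. Pdgfrb itself stood at 925 ± 125 CPM in WT HI and 356 ± 174 CPM in KO HI (SD, n = 4 each), lower in KO by -1.38 ± 0.35 log2 units (edgeR adjusted p = 0.0246). The 12 pan-myeloid markers (such as Ptprc, Laptm5 and Fcer1g) summed to 926 to 1190 CPM (WT sham), 912 to 1870 (KO sham), 1060 to 1960 (WT HI) and 2070 to 4250 (KO HI). The 14 microglia markers (such as P2ry12 and Tmem119) summed to 2370 to 3400, 3300 to 5710, 1930 to 5050 and 6180 to 13600 CPM in the same order. Endothelial markers summed to 11200 to 13000, 4100 to 11900, 11700 to 15200 and 3900 to 7360 CPM. WT HI replicate 2 stood apart from the other WT HI libraries, with 1960 CPM of pan-myeloid markers against 1060 to 1130. Fold changes of Csf1r, Csf2ra and Csf3r that rest on it are given with and without it. All 7 members are measured in a mixture, and in bulk RNA more cells of a type and more transcript per cell cannot be told apart.

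**Figure D1:**
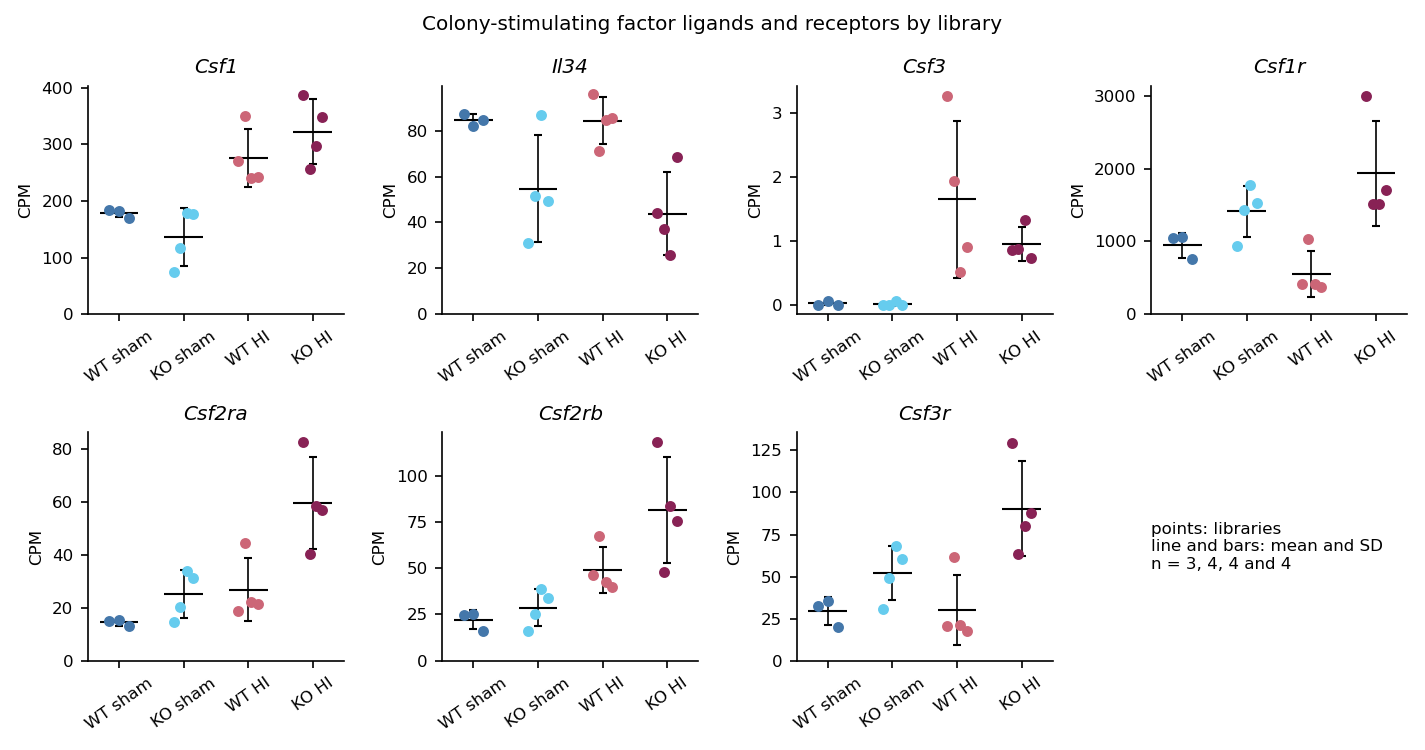
Level of each of the 7 genes in CPM (linear axis) in the 15 libraries, by group; points are libraries, the line and bars are the mean and SD (n = 3, 4, 4 and 4). Csf3 lies at or near 0 in all sham libraries, and Csf1 is higher in every HI than in every sham library. The means of Csf1 and of all 4 receptor genes are highest in KO HI, each with libraries that overlap another group.

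Csf1, the ligand made by vascular and glial cells, was higher in every HI library than in every sham library of either genotype. It stood at 183, 183 and 170 CPM in WT sham replicates 1, 2 and 3 (179 ± 7.35, SD, n = 3) and at 271, 350, 240 and 243 CPM in WT HI replicates 1, 2, 4 and 5 (276 ± 51.2, n = 4). In KO mice it stood at 74.3, 116, 179 and 176 CPM in sham replicates 1, 3, 4 and 6 (136 ± 50.6, n = 4) and at 387, 256, 297 and 349 CPM in HI replicates 1 to 4 (322 ± 57.7, n = 4). The WT libraries were tight before injury, while KO sham replicates 1 and 3 lay below the others. In KO mice Csf1 rose with HI by 1.24 ± 0.24 log2 units, 2.36-fold (edgeR adjusted p = 0.0114). In WT mice the difference was 0.63 ± 0.26 log2 units and did not pass (edgeR adjusted p = 0.324), although the groups did not overlap. Which genotype passed depended on the fit: with only the 2 groups compared, Csf1 passed in WT (0.62 ± 0.13, edgeR adjusted p = 0.0206) and not in KO (1.20 ± 0.30, edgeR adjusted p = 0.142). In WT it also passed without the 5 libraries with the most neuron markers, at 0.64 ± 0.15 log2 units (edgeR adjusted p = 0.0467). Those libraries were WT sham 2, KO sham 1 and 3, and KO HI 2 and 3, so that fit kept fewer libraries in these groups. In the fit of all 15 libraries the difference between the KO and WT responses, 0.61 ± 0.35 log2 units, did not pass (edgeR adjusted p = 0.935). KO and WT differed after HI by 0.22 ± 0.24 log2 units, with overlapping groups (edgeR adjusted p = 0.526).

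Il34, the other ligand of CSF1R, passed the test in none of the 5 comparisons. In WT it stood at 87.5, 81.9 and 84.7 CPM in sham and at 96.0, 71.4, 84.9 and 85.6 CPM in HI, so the groups overlapped and their means were 84.7 ± 2.75 (SD, n = 3) and 84.5 ± 10.1 CPM (n = 4). The HI difference in WT was -0.0041 ± 0.32 log2 units (edgeR adjusted p = 0.997). In KO it stood at 30.9, 51.6, 86.9 and 49.3 CPM in sham and at 44.1, 36.9, 26.0 and 68.5 CPM in HI. All 4 KO HI libraries lay below all 4 WT HI libraries. That difference was -0.94 ± 0.30 log2 units and just missed the threshold (edgeR adjusted p = 0.0549), while DESeq2 and limma-voom called it (adjusted p = 0.0105 and 0.0358). In edgeR it passed without KO sham 1, KO sham 4 or KO HI 4 (adjusted p = 0.0190, 0.0287 and 0.0143). The difference in sham was -0.63 ± 0.32 log2 units (edgeR adjusted p = 0.477). Neuron markers summed highest in KO sham 1 (1270 CPM) and KO HI 3 (760 CPM), and these 2 libraries had the lowest Il34 of their groups, 30.9 and 26.0 CPM. Pericyte markers were also lowest there, at 3200 and 1890 CPM. Without the 5 libraries with the most neuron markers the Il34 difference after HI was -0.61 ± 0.24 log2 units (edgeR adjusted p = 0.107), and the part of pericyte content was not tested.

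Set against each other, these ligands of CSF1R were least alike in KO HI. There were 0.448 to 0.497 Il34 counts per Csf1 count in WT sham and 0.280 to 0.485 in KO sham. After HI there were 0.204 to 0.355 in WT and 0.0877 to 0.196 in KO. The KO HI range lay below every other library. This ratio was computed after the values were seen and has no test.

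**Figure D2:**
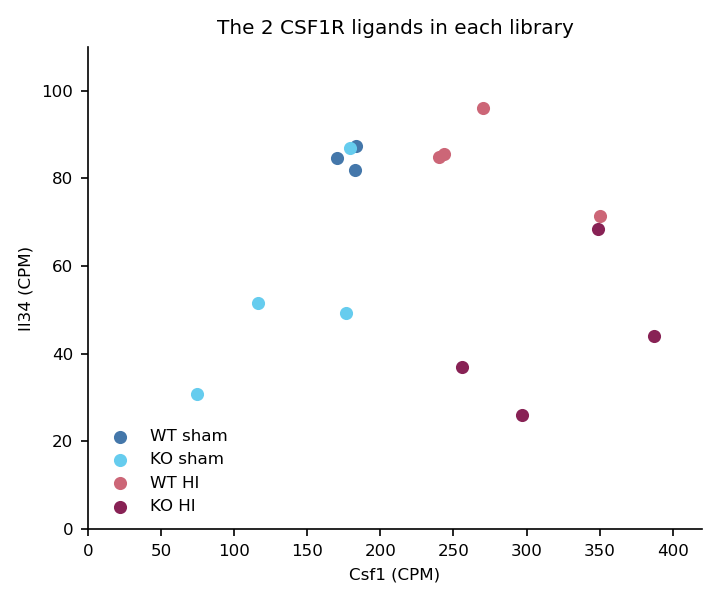
Csf1 (x axis, CPM) against Il34 (y axis, CPM), linear axes, 1 point per library, coloured by group. The WT sham libraries form a tight cluster near 179 and 84.7 CPM, WT HI libraries lie to its right at a like Il34 level, and KO HI libraries lie to the right and lower, 1 of them next to WT HI replicate 2.

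Csf3, which encodes the neutrophil growth factor G-CSF, was nearly absent from sham libraries and detected in all 8 HI libraries. It had 0, 1 and 0 counts in WT sham replicates 1, 2 and 3 and 0, 0, 1 and 0 counts in KO sham replicates 1, 3, 4 and 6. After HI it had 57, 34, 9 and 16 counts in WT replicates 1, 2, 4 and 5, and 15, 15, 22 and 13 counts in KO replicates 1 to 4. Every HI library thus lay above every sham library, at a low level, with means of 1.65 ± 1.23 CPM in WT HI and 0.942 ± 0.267 CPM in KO HI (SD, n = 4 each).

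The pooled rate of Csf3 per normalized library size was 88.0 times higher after HI in WT (116 counts against 1, exact 95% interval 15.5 to 3510) and 62.5 times higher in KO (65 counts against 1, 10.8 to 2510); the intervals cover counting error only. Csf3 rose in WT by 6.0 ± 1.01 log2 units (edgeR adjusted p = 0.00963) and in KO by 5.42 ± 0.92 log2 units (edgeR adjusted p = 0.00652), values that depend on the prior count since sham is near 0. With no filter on low counts, which Csf3 passed only through its HI libraries, the calls held (edgeR adjusted p = 0.0105 in WT and 0.00729 in KO). In WT the call was lost without sham replicate 1 or 3 (5.57 and 5.55 log2 units, edgeR adjusted p = 0.0701 and 0.0712). The response did not differ between genotypes beyond its error (-0.58 ± 2.37 log2 units, edgeR adjusted p = 1.0), an error too wide to compare them. Of the members Csf3 was the only one called in WT, 1 of 7, where 1.38% of 14853 tested genes were called higher and 0.444% lower. In KO mice 4 of 7 members rose and 0 fell (Csf3, Csf1, Csf2rb and Csf2ra), where 4.88% of tested genes were called higher and 2.13% lower. Leaving aside Csf3, which the filter could keep only if it differed, 0 of 6 rose in WT and 3 of 6 in KO. With only the 2 KO groups in the fit edgeR called 0 of 7 members and 16 genes in all. The members' median log2 fold change with HI was 0.625 in WT and 1.24 in KO, against -0.01 and -0.06 over all tested genes.

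**Figure D3:**
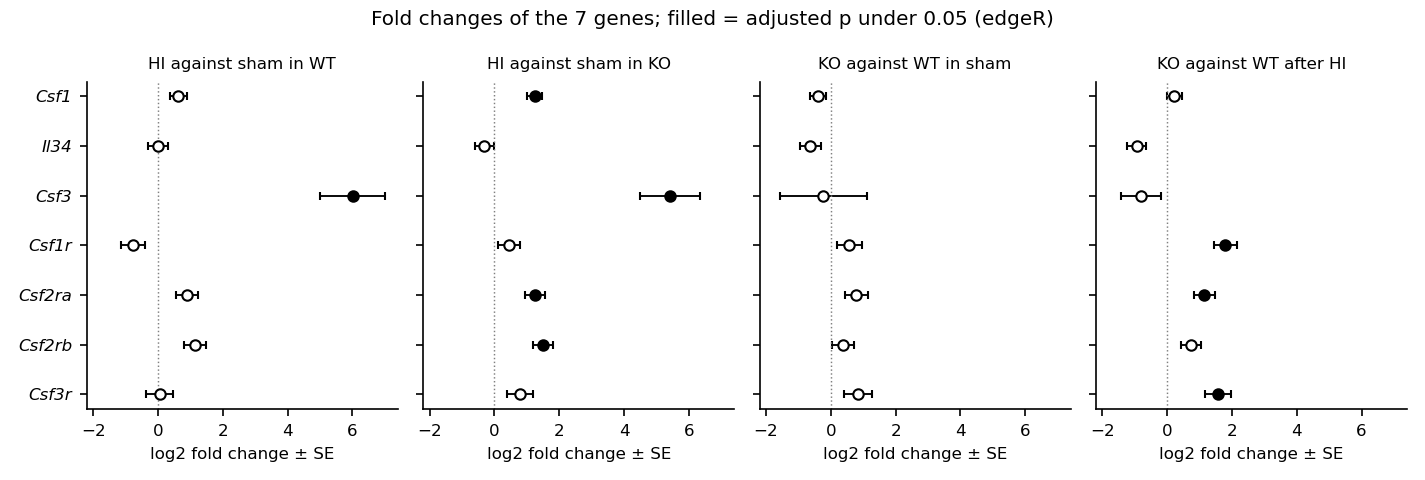
Log2 fold change ± SE of the 7 genes in the 4 pairwise comparisons (edgeR, 15 libraries in 1 fit); filled points have an adjusted p under 0.05. Csf3 is called with HI in both genotypes, Csf1, Csf2ra and Csf2rb with HI in KO, none in KO against WT sham, and Csf1r, Csf2ra and Csf3r in KO against WT after HI.

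Csf1r, the receptor for both CSF1 and IL-34 and a marker of microglia and macrophages, was the most abundant of the 7. Per kilobase of its longest coding transcript it had 202 ± 36.6 CPM per kb in WT sham (SD, n = 3), against 47.2 ± 1.53 for Il34, 42.8 ± 1.76 for Csf1, 8.42 ± 2.37 for Csf3r, 7.83 ± 0.675 for Csf2ra and 4.51 ± 1.05 for Csf2rb. After HI in KO the order was Csf1r (412 ± 152 CPM per kb), Csf1 (77.2 ± 13.8), Csf2ra (32.2 ± 9.41), Csf3r (25.9 ± 8.07), Il34 (24.4 ± 10) and Csf2rb (16.6 ± 5.9), and the last 4 overlapped. In WT sham Csf3r and Csf2ra lay within each other's spread, and Il34 and Csf1 did not overlap. The per-kilobase levels assume the longest transcript in GENCODE M21, since the lengths the authors used are not given in the sources used here.

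By library Csf1r stood at 1046, 1055 and 753 CPM in WT sham and at 412, 1034, 411 and 372 CPM in WT HI replicates 1, 2, 4 and 5. WT HI replicate 2 lay at the sham level and the other 3 below it. In KO it stood at 934, 1428, 1771 and 1524 CPM in sham and at 3000, 1511, 1518 and 1711 CPM in HI, with overlapping groups. After HI every KO library was above every WT library, by 1.80 ± 0.35 log2 units or 3.47-fold (edgeR adjusted p = 0.00951), and by 2.28 ± 0.29 without WT HI replicate 2. The HI differences were -0.77 ± 0.37 log2 units in WT (edgeR adjusted p = 0.414) and 0.45 ± 0.34 in KO (edgeR adjusted p = 0.507). Without WT HI replicate 2 the WT value was -1.25 ± 0.29 (edgeR adjusted p = 0.0591). The difference between responses, 1.22 ± 0.50 log2 units, did not pass (edgeR adjusted p = 0.932). Nor did it pass without WT HI replicate 2, at 1.71 ± 0.38 (edgeR adjusted p = 0.228).

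Csf2ra, the α chain specific to GM-CSF, was highest in KO HI. It stood at 14.8, 15.5 and 13.1 CPM in WT sham, 18.9, 44.5, 22.3 and 21.6 CPM in WT HI, 14.7, 20.4, 33.8 and 31.3 CPM in KO sham and 82.7, 40.5, 58.3 and 56.8 CPM in KO HI. In each genotype all HI libraries lay above all sham libraries, and WT HI replicate 2 lay above the other 3. It rose with HI in KO by 1.25 ± 0.32 log2 units (edgeR adjusted p = 0.0339) and not past the threshold in WT, at 0.89 ± 0.35 (edgeR adjusted p = 0.274). Leaving out WT HI replicate 2 gave 0.53 ± 0.30 in WT (edgeR adjusted p = 0.598). The KO call was close to the threshold and was lost without KO sham 3 or KO HI 1, 3 or 4, or without any WT sham library, with edgeR adjusted p from 0.0514 to 0.118 in those 7 fits. Csf2, the gene of GM-CSF itself, had 1 count in each of 2 WT HI libraries and 0 counts in the other 13, so its ligand was not detectable beyond single counts at this depth.

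Csf2rb, the shared β chain, stood at 24.9, 25.3 and 16.2 CPM in WT sham and 46.1, 67.5, 42.7 and 39.6 CPM in WT HI, with no overlap. In KO it stood at 16.3, 25.3, 38.8 and 34.0 CPM in sham and 118, 48.1, 83.8 and 75.7 CPM in HI, again with no overlap. It rose in KO by 1.51 ± 0.31 log2 units (edgeR adjusted p = 0.0132), while the WT difference of 1.15 ± 0.34 did not pass (edgeR adjusted p = 0.113). The WT difference did pass in DESeq2 (adjusted p = 0.0145), and in edgeR with only the 2 groups compared, without the 5 libraries with the most neuron markers or without KO sham 1 (adjusted p = 0.0165, 0.0414 and 0.0472). With only the 2 KO groups the KO call was lost (edgeR adjusted p = 0.125). Mice carry a near-identical copy, Csf2rb2, which encodes a β chain used by the interleukin-3 receptor alone, and reads can be assigned to either. Csf2rb held 49.9% to 60.2% of the counts of the pair in every library, and only these lines among the members carried fractional counts. With both lines summed, an alternative added after the data were seen, the differences were 1.42 ± 0.31 log2 units in KO (edgeR adjusted p = 0.0171) and 1.24 ± 0.34 in WT (edgeR adjusted p = 0.0854).

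Csf3r, the receptor for G-CSF and known from neutrophils, stood at 32.4, 35.6 and 19.96 CPM in WT sham, 20.3, 61.6, 21.4 and 17.5 CPM in WT HI, 30.9, 49.2, 68.3 and 60.2 CPM in KO sham and 129.6, 63.6, 80.2 and 87.9 CPM in KO HI. WT sham and WT HI overlapped, as did KO sham and KO HI. After HI every KO library was above every WT library. The difference was 1.58 ± 0.40 log2 units or 2.99-fold (edgeR adjusted p = 0.0250), and 2.19 ± 0.31 without WT HI replicate 2. With HI the difference was 0.04 ± 0.43 log2 units in WT and 0.79 ± 0.40 in KO, neither past the threshold (edgeR adjusted p = 0.985 and 0.268). Without WT HI replicate 2 the WT value was -0.57 ± 0.31, also not called.

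In KO against WT after HI, 3 of 7 members were higher (Csf1r, Csf3r and Csf2ra) and 0 lower, where 5.96% of tested genes were called higher and 6.46% lower. Csf2ra was higher there by 1.15 ± 0.32 log2 units (edgeR adjusted p = 0.0327), with WT HI replicate 2 above the lowest KO library, and Csf2rb by 0.73 ± 0.30 (edgeR adjusted p = 0.121). Leaving out WT HI replicate 2 gave 1.51 ± 0.29 for Csf2ra (edgeR adjusted p = 0.00572). The Csf2ra and Csf3r calls were lost without any of WT HI 1, 4 or 5 or KO HI 1, and that of Csf2ra also without KO HI 3, with edgeR adjusted p from 0.0635 to 0.109 in those fits, whereas that of Csf1r passed in all 15 fits that left out 1 library. In KO against WT sham 0 of 7 members were called by edgeR, where 0.0135% of tested genes were; 1 of 7 had an unadjusted p under 0.05, and DESeq2 and limma-voom called 0. For the difference between the HI responses edgeR called 0 of 7 members and 0.0% of tested genes, with an unadjusted p under 0.05 for 1 of 7 members and 768 genes. DESeq2 called 22 genes and limma-voom 0, none of them members.

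The 4 receptor genes are transcripts of myeloid cells, whose markers moved with the same groups, so their levels were also read against those markers. In KO HI against WT HI, 9 of 12 pan-myeloid and 14 of 14 microglia markers were called higher, with medians of 1.35 and 1.75 log2 units, and in KO with HI 8 of 12 and 3 of 14 were. Of all tested genes 5.96% and 4.88% were called higher in these comparisons. With HI in WT, where 2 of 14 microglia markers were lower, P2ry12 fell by 2.19 ± 0.45 log2 units (edgeR adjusted p = 0.0265) and Siglech, a microglial lectin, by 1.90 ± 0.42 (edgeR adjusted p = 0.0386). Aif1, a calcium-binding protein of microglia, was higher by 2.08 ± 0.29 log2 units (edgeR adjusted p = 0.00484) and P2ry12, a purinergic receptor of resting microglia, by 2.45 ± 0.43 (edgeR adjusted p = 0.00682) in KO HI than WT HI. With the mean pan-myeloid level as a covariate in the fit, the KO minus WT differences after HI were 0.45 ± 0.22 log2 units for Csf1r, -0.20 ± 0.17 for Csf2ra, -0.69 ± 0.19 for Csf2rb and -0.0003 ± 0.20 for Csf3r, and none passed (edgeR adjusted p = 0.141, 0.385, 0.0547 and 0.999). In that fit the HI difference of Csf2ra in KO was -0.04 ± 0.17 and that of Csf2rb 0.21 ± 0.17 log2 units (edgeR adjusted p = 0.899 and 0.474). Csf1 in KO was at 0.36 ± 0.20 (edgeR adjusted p = 0.3485), while Csf3 stayed at 5.90 ± 1.05 in WT (edgeR adjusted p = 0.00706) and 5.09 ± 1.28 in KO (edgeR adjusted p = 0.171). In WT with HI that fit gave -1.26 ± 0.16 log2 units for Csf1r (edgeR adjusted p = 0.00145) and 0.79 ± 0.12 for Csf2rb (edgeR adjusted p = 0.00384), both past the threshold. Marker level and group overlap little in KO HI: the fit called 4 genes in all for HI in KO and 1 for genotype after HI, so a call missing there shows little.

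Relative to the pan-myeloid markers, Csf1r was lower after HI in both genotypes. Its log2 CPM exceeded the mean of the 12 markers by 4.004, 4.09 and 3.96 in WT sham and by 2.71, 3.16, 2.68 and 2.63 in WT HI. In KO the excess was 4.20, 4.21, 4.18 and 4.08 in sham and 3.60, 3.67, 3.19 and 3.18 in HI. No HI library reached a sham library in either genotype. The differences were -1.22 log2 units in WT (exact two-sided permutation p = 0.0571, the smallest that 3 against 4 libraries allow) and -0.76 in KO (exact permutation p = 0.0286, the smallest that 4 against 4 allow). KO exceeded WT by 0.61 log2 units after HI (exact permutation p = 0.0286) and by 0.15 in sham (exact permutation p = 0.114). Adjusted over these 4 comparisons the exact permutation p-values were 0.0762, 0.0571, 0.0571 and 0.114 for HI in WT, HI in KO, genotype after HI and genotype in sham. With these group sizes no adjusted value under 0.0571 could be reached, so missing the threshold says nothing here.

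Against the 14 microglia markers the Csf1r difference with HI was -0.32 log2 units in WT and -0.23 in KO, and between genotypes -0.04 after HI and -0.13 in sham. Csf1r stood at 2.52 ± 0.03 (SD, n = 3), 2.39 ± 0.08, 2.20 ± 0.03 and 2.16 ± 0.10 log2 units above them (n = 4 each) in WT sham, KO sham, WT HI and KO HI. Here too no HI library reached a sham library of its genotype, and the exact permutation p-values with HI were again the smallest possible, 0.0571 in WT and 0.0286 in KO. For genotype the exact permutation p was 0.457 after HI and 0.0571 in sham. Csf2rb went the other way. Relative to the pan-myeloid markers it stood at -1.41 ± 0.14 log2 units in WT sham and -0.60 ± 0.13 in WT HI, with no overlap, and at -1.49 ± 0.15 and -1.17 ± 0.17 in KO sham and KO HI. Csf2ra ranged over -2.13 to -1.87 (WT sham), -1.73 to -1.38 (WT HI), -1.91 to -1.52 (KO sham) and -1.73 to -1.51 (KO HI), with no overlap in WT. Against the microglia markers Csf2ra stood at -3.49 ± 0.147 and -2.12 ± 0.198 log2 units in WT sham and HI, and at -3.46 ± 0.248 and -2.84 ± 0.168 in KO sham and HI, with no overlap in either genotype. Csf3r ranged over -1.27 to -0.80 (WT sham), -1.77 to -0.91 (WT HI), -0.71 to -0.51 (KO sham) and -1.10 to -0.90 (KO HI), so within KO all HI libraries lay below all sham libraries. The direction for Csf3r depended on the reference. Against the microglia markers it was higher in HI, at -2.52 ± 0.176 and -2.06 ± 0.134 log2 units in WT sham and HI, with no overlap. In KO sham and HI it stood at -2.39 ± 0.155 and -2.24 ± 0.0884 log2 units above that reference, with overlapping groups. The values for Csf2ra, Csf2rb and Csf3r are descriptions with no test.

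**Figure D4:**
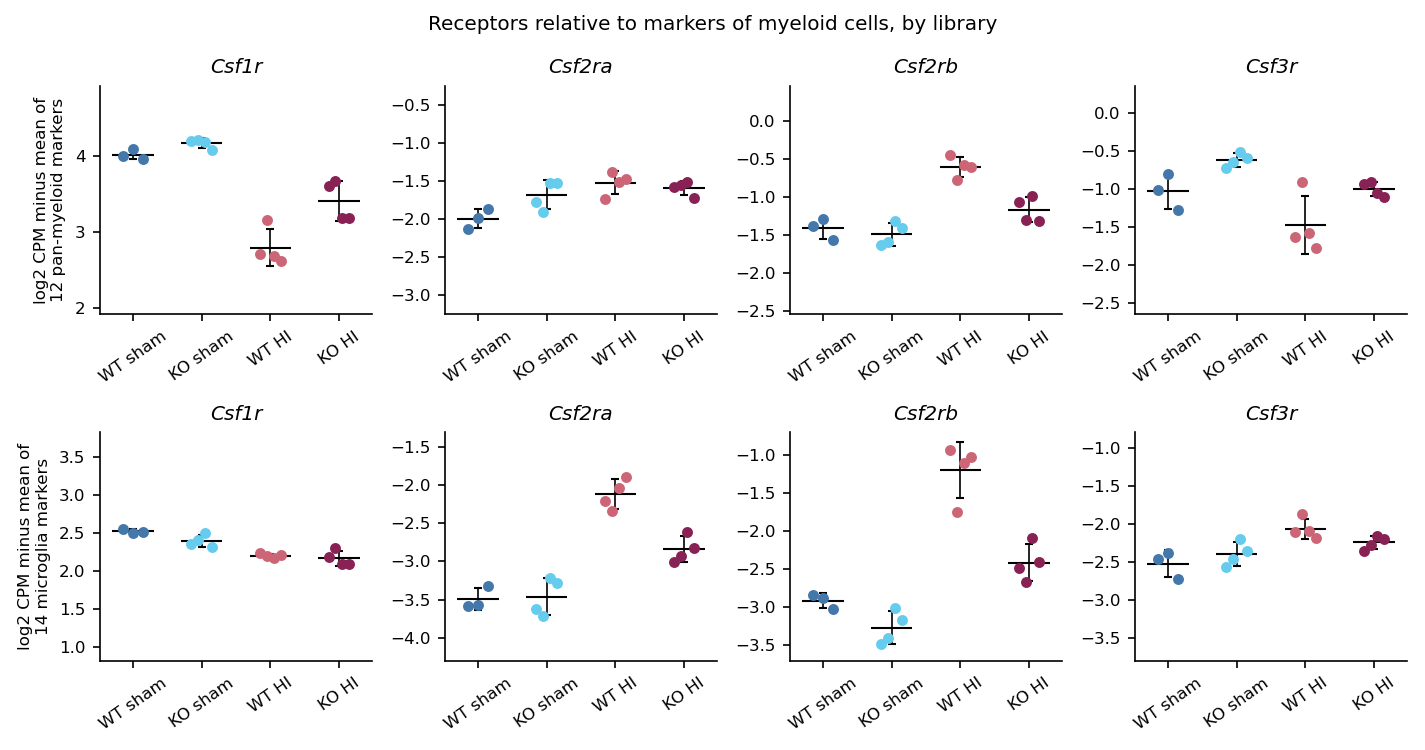
Log2 CPM of each receptor gene minus the mean log2 CPM of 12 pan-myeloid markers (top) or 14 microglia markers (bottom), by library and group; every panel spans 3 log2 units, and line and bars are the mean and SD. Csf1r is lower in HI than in sham in the top row, with smaller differences in the bottom row, and Csf2rb is highest in WT HI in both rows.

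Neutrophils, the cells on which CSF3R is best known, left few transcripts. The 12 neutrophil markers summed to 10.1 to 29.2 CPM (WT sham), 10.6 to 18.9 (KO sham), 15.3 to 45.9 (WT HI) and 23.8 to 66.3 (KO HI). Ly6g, a defining surface marker of mouse neutrophils, had 1 count in each of 2 sham libraries and 0 in all others, and Elane, a granule protease, had at most 3 counts in any library. Of the 8 tested neutrophil markers 3 rose with HI in KO, where 4.88% of all tested genes were called higher. These were S100a8 by 3.50 ± 0.80 log2 units (edgeR adjusted p = 0.0224), S100a9 by 3.51 ± 0.95 (edgeR adjusted p = 0.0432) and the collagenase Mmp8 by 3.95 ± 1.07 (edgeR adjusted p = 0.0433). Mmp8 had at most 6 counts in any sham library and 2 to 47 in HI libraries. It passed the filter on low counts only through HI libraries, so its call and the share of 3 of 8 lean toward a rise and are no support for one. In WT edgeR called 0 of 8, with S100a8 at 2.52 ± 0.87 (edgeR adjusted p = 0.196), while 2 had an unadjusted p under 0.05, DESeq2 called 1 and limma-voom 0. The granule genes Ngp and Ltf did not follow: Ngp had 60, 6 and 22 counts in WT sham and 15, 19, 5 and 4 in WT HI, and Ltf 30, 3 and 11 against 5, 14, 11 and 3. In KO, Ngp had 6, 2, 45 and 23 counts in sham and 7, 15, 31 and 8 in HI, and Ltf 8, 2, 39 and 7 against 9, 11, 9 and 5. WT HI replicate 2, with the highest Csf3r of its group, also had the most S100a8 of its group, 162 counts against 25 to 59. The same library had the most pan-myeloid and microglia markers of its group, 1960 and 5050 CPM. In KO HI the 2 genes did not peak together. Csf3r was highest in replicate 1 (129.6 CPM, with 153 S100a8 counts) and S100a8 in replicate 3 (248 counts, with Csf3r at 80.2 CPM). Which cells carried Csf3r was not tested.

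Among genes of cytokines, receptors and NF-κB signalling that act upstream of the ligand genes, 2 of 15 rose with HI in WT and 3 of 15 in KO. Their medians were 0.64 and 0.53 log2 units, where 1.38% and 4.88% of all tested genes were called higher. Tnf, the gene of tumour necrosis factor, rose by 2.88 ± 0.59 log2 units in WT (edgeR adjusted p = 0.0267), from 24.3 ± 7.90 to 178 ± 115 CPM (SD, n = 3 and 4). In KO it rose by 3.43 ± 0.54 (edgeR adjusted p = 0.00563), from 18 ± 5.93 to 194 ± 102 CPM (SD, n = 4 each). Il1r1, the signalling receptor of interleukin-1, rose in WT by 1.15 ± 0.20 log2 units (edgeR adjusted p = 0.0112), from 81.9 ± 3.69 to 182 ± 18.8 CPM, and was lower in KO HI than WT HI, at 87.4 ± 17.3 CPM (-1.05 ± 0.18, edgeR adjusted p = 0.00596). The difference between its KO and WT responses, -0.665 ± 0.265 log2 units, did not pass (edgeR adjusted p = 0.932). After HI 11 of 14 endothelial markers were also called lower in KO, with a median of -0.999 log2 units, where 6.46% of tested genes were. Their part in the Il1r1 difference was not tested. Il1b, a main inducer of Csf3, rose in KO by 2.44 ± 0.62 log2 units (edgeR adjusted p = 0.0346) and Il17ra, a receptor whose ligand also induces G-CSF, by 0.999 ± 0.24 (edgeR adjusted p = 0.0266).

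Downstream of CSF1R, 4 of 16 signalling genes rose with HI in KO and edgeR called 0 of 16 in WT (1 at an unadjusted p under 0.05, 1 by DESeq2, 0 by limma-voom). Of all tested genes 4.88% were called higher with HI in KO and 1.38% in WT. After HI 6 of 16 were higher in KO than WT and 1 was lower, where 5.96% of tested genes were called higher and 6.46% lower. The median was 0.78 log2 units against 0.06 over all genes. Tyrobp, an adaptor that microglial receptors share, rose with HI in KO by 1.38 ± 0.37 log2 units (edgeR adjusted p = 0.0416), and the phosphatase Ptpn6, a brake on myeloid receptor signalling, by 1.25 ± 0.31 (edgeR adjusted p = 0.0324). Dok2, an adaptor that dampens tyrosine kinase signals in blood cells, rose by 2.05 ± 0.33 (edgeR adjusted p = 0.00579) and Grb2, a general adaptor to RAS, by 0.37 ± 0.10 (edgeR adjusted p = 0.0465). Many of these genes are myeloid themselves, and the part of the rise in myeloid markers in their differences was not tested.

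Of 13 transcription factors of myeloid cells 6 rose with HI in KO, and after HI 7 were higher in KO than WT and 1, Klf4, was lower, where 4.88% and 5.96% of all tested genes were called higher. With HI in WT edgeR called 0 of 13, as did DESeq2 and limma-voom, and 3 had an unadjusted p under 0.05. The pan-myeloid and microglia markers given above were higher in the same groups, and their part in these differences was not tested. Spi1, which encodes PU.1, was higher in KO HI by 1.53 ± 0.35 log2 units (edgeR adjusted p = 0.0173), at 45.6 ± 24.3 CPM in WT HI and 132 ± 48.7 CPM in KO HI (SD, n = 4 each). Maf was higher by 1.39 ± 0.23 (edgeR adjusted p = 0.00596) and Mef2c by 0.76 ± 0.15 log2 units (edgeR adjusted p = 0.0106). Neuron markers differed there too, at 31.1 to 34.3 CPM in WT HI, 205 and 760 CPM in KO HI 2 and 3, and 25.7 and 32.6 CPM in KO HI 1 and 4. Their part in the Mef2c difference was not tested. Runx1, a regulator of blood cell formation, rose with HI in KO by 1.44 ± 0.32 log2 units (edgeR adjusted p = 0.0188), and Cebpa, required for granulocytes, by 1.29 ± 0.30 (edgeR adjusted p = 0.0240).

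In the JAK-STAT pathway that the G-CSF and GM-CSF receptors use, 1 of 15 genes rose with HI in each genotype, in KO a share near the 4.88% of all tested genes. In WT 1.38% of all tested genes were called higher. Stat3, the main effector of CSF3R, rose in WT by 0.76 ± 0.15 log2 units (edgeR adjusted p = 0.0234), from 175 ± 11.3 to 296 ± 29.2 CPM (SD, n = 3 and 4), and was lower in KO HI than WT HI, at 215 ± 35.4 CPM (-0.46 ± 0.14, edgeR adjusted p = 0.0456). Bcl2l1, a survival gene, rose in KO by 0.50 ± 0.11 log2 units (edgeR adjusted p = 0.0214). After HI 2 of 15 were higher in KO, among them the kinase Lyn, where 5.96% of tested genes were called higher and 6.46% lower. Another 3, Socs2, Jak2 and Stat3, were lower, with Socs2, a feedback inhibitor, at -0.74 ± 0.13 log2 units (edgeR adjusted p = 0.00695). For the difference between the HI responses edgeR called 0 of the 15, as it called 0.0% of tested genes. After HI the medians of the endothelial and pericyte markers were -0.999 and -1.113 log2 units in KO against WT. The part of this cell balance in the lower JAK-STAT genes was not tested.

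Of 12 other ligands and receptors of related families 8 were tested, of which 1 rose with HI in KO, Csf2rb2 (1.31 ± 0.32 log2 units, edgeR adjusted p = 0.0278), and 1 was lower in KO than WT after HI, Sdc1 (-1.22 ± 0.29, edgeR adjusted p = 0.0186), a proteoglycan that also binds IL-34. Of all tested genes 4.88% were called higher with HI in KO and 6.46% lower in KO than WT after HI. Il3 and Il5, ligands of the other receptors that use the shared β chain, had at most 1 and 5 counts per library. Ptprz1, a second receptor of IL-34 carried by glial cells, ran from 373 to 19851 counts, highest in KO sham 1 and next in KO HI 3, the 2 libraries with the most neuron, astrocyte and oligodendrocyte markers.

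Across the 15 libraries the genes with the most similar log2 CPM pattern differed by member; the points share their groups and cell balance, and the correlations are descriptions. Csf1r was most like Mlxipl, Lpcat2 and Ptgs1 (Pearson r of 0.992, 0.991 and 0.991) and Csf3r most like Rasa4, Arhgap45 and Slc11a1 (0.992, 0.991 and 0.990). Csf2ra followed Sh3bp2, Hk3 and Lgmn (0.987, 0.984 and 0.984), and Csf2rb followed Runx1, its copy Csf2rb2 and Il17ra (0.981, 0.979 and 0.978). Among the ligands, Il34 was most like Lamc1, a laminin chain of basement membranes, Col7a1 and Cyth3 (0.992, 0.989 and 0.985). Csf1 was most like Ripk3, a kinase of necroptosis, Mars1 and Fnip2 (0.971, 0.966 and 0.961), and Csf3 most like Ackr1, a chemokine-binding protein of venules, the acute-phase gene Lcn2 and Cd44 (0.940, 0.937 and 0.933). Among the members, Csf1r and Csf3r had an r of 0.928 and Csf2ra and Csf2rb of 0.921, while Csf1r and Csf1 had 0.115 and Csf1r and Il34 -0.514.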

How the data were processed

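The values are expected counts as the authors deposited them, 1 column for each of 15 libraries; 3.12% to 3.92% of a library's values were not whole. HISAT2 2.1.0, Bowtie2 2.4.4, Bowtie, RSEM 1.3.1 and DESeq2 1.4.5, with mm39 as build, are named per the submitters' processing notes, without their roles. Of 65535 lines 47643 were blank; 17862 of the 17892 with values matched a RefSeq symbol. Counts were rounded to whole numbers. One edgeR 4.0.16 quasi-likelihood fit (R 4.3.3, TMM, filterByExpr, 4 group means) tested 14853 genes in 5 contrasts with Benjamini-Hochberg adjustment over all of them, called at 0.05. Standard errors derive from the edgeR statistic; log2 CPM used a prior count of 2. The script was tested on simulated data. Alternatives used DESeq2 1.42.0, limma 3.58.1 (voom), other filters, samples and covariates. Members, lists and alternatives were chosen with earlier results of these data known. Named besides the members were up to 4 called genes per list and contrast with the smallest p (or the 1 with the smallest p where none was called), and per member the 3 genes with the highest Pearson r among those with a mean of at least 10 CPM. Single counts named for Csf2, Il3, Il5, Ly6g, Elane, Ngp, Ltf and Ptprz1, and marker examples, fall outside that rule and were chosen after their values were seen. Some called list genes are not reported here.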

Additional observations from a re-analysis of the deposited data

Results flagged for a closer look

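In groups of 4 libraries, a library far from the others was found for 6 of 24 group values examined; about 1 in 20 would be flagged by chance, and these values are not independent. WT HI replicate 2 was high for Csf1r (1030 CPM against 372 to 412 in the other 3), Csf2ra (44.5 against 18.9 to 22.3 CPM) and Csf3r (61.6 against 17.5 to 21.4 CPM). The same library was high for Csf1r relative to the pan-myeloid markers (3.16 log2 units against 2.63 to 2.71) and had 1960 CPM of pan-myeloid markers against 1060 to 1130 in the others. KO HI replicate 1 was high for Csf1r (3000 CPM against 1510 to 1710) and had the highest microglia markers of all libraries, 13600 CPM. Csf3 in KO sham replicate 4 was 0.0579 CPM against 0 in the other 3, which is a single count.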

How the results depend on the processing

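Of 802 alternative values for the members' fold changes, 722 kept their direction and side of the threshold, 36 lost a call, 15 gained one and 29 changed sign; the cause was not tested. Only 3 of these 29 were called in the reported fit, all with the pan-myeloid marker level as covariate: Csf2ra with HI in KO (-0.0374 log2 units), Csf2ra after HI (-0.2) and Csf3r after HI (-0.0003). The covariate also turned the uncalled values of Csf3r with HI in WT (-0.5643), Csf1r and Csf3r with HI in KO (-0.9091 and -0.8191), Csf2rb in sham (-0.1129), Csf1 and Csf2rb after HI (-0.7643 and -0.6879), and Csf2ra, Csf2rb and Csf3r in the difference of responses (-0.4763, -0.575 and -0.2548). Il34 with HI in WT, close to 0, turned with DESeq2 and its size factors (0.0005 each), and Csf3r there with limma-voom (-0.1177). Csf3 in sham, at 1 count a group, turned with the replicate block (0.4241) and without the 5 libraries with the most neuron markers (2.3211). Leaving out 1 library spanned 0 for Il34 and Csf3r with HI in WT (-0.0709 to 0.069 and -0.5675 to 0.2573), Csf3 in sham (-1.8462 to 1.6156), and Il34 and Csf3 in the difference of responses (-0.6206 to 0.0025 and -2.4233 to 1.0395). Against microglia markers the Csf1r genotype differences turned in sham (-0.1295) and after HI (-0.0368).

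For HI in WT edgeR called 271 genes and 1 member. DESeq2 called 782 and 2, a fit of only the 2 groups compared 2443 and 3, omitting the 5 libraries with the most neuron markers 750 and 3, and the covariate 629 and 3. For HI in KO (1041 genes, 4 members) the counts were 1932 genes with DESeq2, 16 and 0 with only the 2 groups, 2458 and 2 without the 5 libraries, and 4 and 0 with the covariate. For KO against WT in sham (2 genes, 0 members) they were 32 genes with DESeq2, 0 with limma-voom, 1 with only the 2 groups, 5 without the 5 libraries and 6 with the covariate. For KO against WT after HI (1844 genes, 3 members) they were 3399 genes with DESeq2, 3440 without the 5 libraries, and 1 and 0 with the covariate. For the difference of responses (0 genes) DESeq2 called 22.

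With a replicate block, edgeR called 16 genes for HI in WT, 73 for HI in KO, 1 for genotype in sham and 21 after HI, and 0 members in each. Same-numbered libraries correlated from -0.784 to 0.793 in their deviations, and the labels do not state what the number means. Single libraries also differ in cell balance, so these correlations cannot tell whether same-numbered libraries are related.

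Leaving out 1 library in turn gave 48 to 554 genes and 0 to 2 members for HI in WT, 355 to 1927 genes and 3 to 4 members for HI in KO, and 1 to 2 genes for genotype in sham. It gave 481 to 3605 genes and 1 to 4 members after HI, and 0 to 2 genes for the difference of responses. The counts of genes moved by more than 1.5 times, for HI in WT, without WT sham 1, 2 or 3 (48, 51 and 57), KO sham 1 (554) and WT HI 1, 4 or 5 (115, 165 and 154). For HI in KO they did so without WT sham 2 (683), KO sham 1, 3 or 4 (1927, 547 and 658) and KO HI 1 or 2 (355 and 1592). After HI they did so without KO sham 1 (3605), WT HI 1, 4 or 5 (481, 538 and 558) and KO HI 1 or 3 (669 and 1028). With 3 or 4 libraries a group and a common biological coefficient of variation of 38.6%, small differences were not detectable.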
